A study of Mus musculus with 8 samples.

Results

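Glycolysis breaks glucose down to pyruvate in the cytosol, and the gene set described here covers its main stages: the glucose transporter gene Slc2a1 and 9 enzyme genes, Hk1, Hk2, Gpi1, Aldoa, Gapdh, Pgk1, Eno1, Pkm and Ldha. The members were chosen by gene symbol, and all 10 were found among the 27179 genes of the expression table and kept by the filter on low values, which left 10541 genes. RNA came from LTi (lymphoid tissue inducer) cells, a kind of innate lymphocyte that helps to form lymphoid organs, isolated from C57BL/6 mice as lineage-negative CD127+ CCR6+ cells without KLRG1, NK1.1 or NKp46. The 4 groups were Tcf7+/+ cells from Peyer's patches (PP), Tcf7fl/fl-RorcCre cells from PP, Tcf7+/+ cells from small intestinal lamina propria (LP) and Tcf7fl/fl-RorcCre cells from LP, with 2 libraries in each. Tcf7 encodes the transcription factor TCF-1. Its floxed alleles are cut by a Cre recombinase whose expression is not limited to LTi cells. The labels give no age or sex of the mice and do not say whether the 2 libraries of a group came from separate animals. The p-values therefore measure only the spread between these libraries, which may be technical.

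Glucose enters through transporters such as the SLC2A1 protein (GLUT1), is trapped by phosphorylation through a hexokinase, is split into 3-carbon sugars by aldolase and is oxidised from glyceraldehyde 3-phosphate onwards. Phosphoglycerate kinase and pyruvate kinase yield ATP, and lactate dehydrogenase turns pyruvate into lactate while restoring NAD+. Lymphocytes are known for raising this pathway on activation, often with the inducible hexokinase HK2 joining the constitutive HK1, and HIF-1 is a known activator of many of its genes.

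Levels are RPKM (read counts scaled to gene length and to the reads in the library), differences are log2 fold changes of RPKM + 1 with their standard error (SE), and a gene passed at a limma adjusted p under 0.05 over all 10541 genes. The LTi marker list was present in every library: its 15 genes, among them Il7r, Ccr6 and Il23r, summed to 6951 to 8061 RPKM in PP and 7693 to 9117 RPKM in LP. Of the genes for the surface proteins selected against, Ncr1 (NKp46) stayed under 1 RPKM in all libraries, whereas Klrb1c (NK1.1) stood at 32.8 RPKM in Tcf7+/+ PP replicate 1 and 8.42 RPKM in labelled knockout PP replicate 2, and Klrg1 at 10.7 RPKM in Tcf7+/+ LP replicate 1. Both were under 1 RPKM in the other libraries. Tcf7 stood at 243 and 85.4 RPKM in Tcf7+/+ PP, 356 and 337 RPKM in PP labelled Tcf7fl/fl-RorcCre, 229 and 246 RPKM in Tcf7+/+ LP and 237 and 215 RPKM in LP labelled Tcf7fl/fl-RorcCre. The target transcript was thus not lower in either tissue by the test (limma adjusted p = 0.365 and 1), so genotypes are taken from the labels alone, and the libraries are called labelled knockout below. A gene-level value does not separate a deleted exon from the rest of the gene.

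The clearest pattern concerned the hexokinases, which trap glucose in the cell by phosphorylating it. Hk1 (Entrez Gene 15275, chromosome 10, 62268855 to 62379920, all positions on GRCm38) gave the main hexokinase transcript in PP, and Hk2 (Entrez Gene 15277, chromosome 6, 82725025 to 82774454) the main one in LP, in Tcf7+/+ and labelled knockout libraries alike. Promoter windows of Hk2, Hk1 and Eno1 are shown because these members had the lowest p-values between the tissues. Each runs from 250 bases before to 50 after a RefSeq transcript start on GRCm38.p6, is written 5′ to 3′ on the gene's strand, and has in capitals every ACGTG or GCGTG on either strand (CACGT and CACGC when read on the printed strand), the core letters of the hypoxia response element.
Hk2, chr6:82774405-82774704, minus strand: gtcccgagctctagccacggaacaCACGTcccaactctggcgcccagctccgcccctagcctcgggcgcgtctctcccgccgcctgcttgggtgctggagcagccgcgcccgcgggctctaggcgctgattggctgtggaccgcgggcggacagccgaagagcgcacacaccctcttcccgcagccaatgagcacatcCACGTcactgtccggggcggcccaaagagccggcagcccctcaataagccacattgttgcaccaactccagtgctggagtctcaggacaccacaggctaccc
Hk1, chr10:62340372-62340671, minus strand: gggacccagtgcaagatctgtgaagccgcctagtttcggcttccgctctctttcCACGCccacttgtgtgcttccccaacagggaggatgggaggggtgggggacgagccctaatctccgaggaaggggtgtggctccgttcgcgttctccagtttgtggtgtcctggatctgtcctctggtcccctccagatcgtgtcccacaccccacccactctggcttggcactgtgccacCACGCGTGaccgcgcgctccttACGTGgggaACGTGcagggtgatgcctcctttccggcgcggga
Eno1, chr4:150236947-150237246, plus strand: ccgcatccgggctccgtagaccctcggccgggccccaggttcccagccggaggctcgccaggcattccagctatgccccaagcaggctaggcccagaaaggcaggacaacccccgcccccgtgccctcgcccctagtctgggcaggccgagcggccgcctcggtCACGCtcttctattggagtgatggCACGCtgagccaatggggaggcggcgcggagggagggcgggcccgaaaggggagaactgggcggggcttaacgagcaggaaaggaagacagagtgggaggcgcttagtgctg

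The Hk2 window held 2 matches, the Hk1 window 5 and the Eno1 window 2. A second Hk1 start, at chr10:62379859-62380158, held 0. Over the 17 promoter windows of the 10 genes, 13 held at least 1 ACGTG or GCGTG, in 9 of the 10 genes, against 43.8% of 32851 windows of the same length genome-wide. The E-box CACGTG contains ACGTG and so overlaps these matches; it was found in 1 of the 17 windows, of Ldha, against 7.15% of all. The TCF/LEF letters CTTTGAT and CTTTGAA were in 0 of the 17 windows, against 3.73% and 5.14% of all windows. Windows of 1 gene can overlap, and these letter matches describe the windows only.

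Hk2 stood at 5.98 and 12.4 RPKM in Tcf7+/+ PP, 2.19 and 0.451 RPKM in labelled knockout PP, 171 and 128 RPKM in Tcf7+/+ LP, and 36.9 and 50.5 RPKM in labelled knockout LP. All 4 LP libraries lay above all 4 PP libraries. The LP minus PP difference averaged over both genotypes was 4.15 ± 0.63 on the log2 scale (SE, 4 against 4 libraries, limma adjusted p = 0.00466). Taken alone, the labelled knockout libraries gave 4.36 ± 0.80 (limma adjusted p = 0.048), and the Tcf7+/+ libraries gave 3.94 ± 0.80, which did not pass (limma adjusted p = 0.0631). The average call held in all 16 alternatives tried, with adjusted p up to 0.0407, whereas the call in labelled knockout libraries alone held in 5 of 17 and was lost, among others, without either labelled knockout library of PP or LP (limma adjusted p = 0.146, 0.206, 0.154 and 0.156) or either Tcf7+/+ LP library (0.129 and 0.128).

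Hk1 went the other way. It stood at 80.1 and 81.5 RPKM in Tcf7+/+ PP, 56.9 and 57.3 RPKM in labelled knockout PP, 12.5 and 21.2 RPKM in Tcf7+/+ LP, and 11.004 and 29.1 RPKM in labelled knockout LP. Every LP library lay below every PP library, but the average difference of -1.93 ± 0.53 did not pass (limma adjusted p = 0.0698), nor did it in any of its 16 alternatives (0.0509 to 0.175). Its values within each genotype were -2.24 ± 0.67 in Tcf7+/+ and -1.61 ± 0.67 in labelled knockout libraries (limma adjusted p = 0.153 and 0.33).

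As a share of the RPKM of the 4 hexokinase genes Hk1, Hk2, Hk3 and Hkdc1, Hk2 took 4.88% and 13.2% in Tcf7+/+ PP, 3.69% and 0.779% in labelled knockout PP, 83.7% and 73.9% in Tcf7+/+ LP, and 65.1% and 45.5% in labelled knockout LP. Hk1 made up 65.3% to 99.0% across PP libraries and 6.10% to 26.3% across LP libraries. The hexokinase total itself overlapped between tissues, at 57.9 to 123 RPKM in PP and 56.8 to 204 RPKM in LP. Hk3, another hexokinase gene, ranged from 8.82 to 31.3 RPKM in LP and from 0.0551 to 36.7 RPKM in PP, where 1 library carried nearly all of it. Hkdc1 stayed under 1 RPKM in all libraries but 1, a Tcf7+/+ LP library at 8.50 RPKM.

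**Figure D1:**
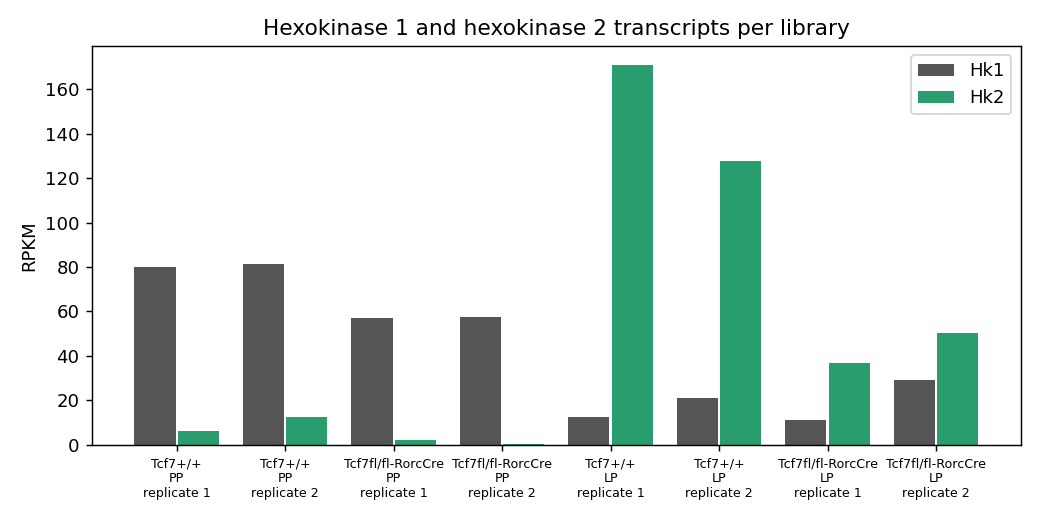
RPKM of Hk1 (grey bars) and Hk2 (green bars) in each of the 8 libraries, 1 pair of bars per library. In the 4 PP libraries Hk1 reached 56.9 to 81.5 RPKM and Hk2 at most 12.4; in the 4 LP libraries Hk2 reached 36.9 to 171 RPKM and Hk1 at most 29.1.

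Eno1 (Entrez Gene 13806, chromosome 4, 150236708 to 150248879) encodes enolase 1, which forms phosphoenolpyruvate late in the pathway, and was the other member that passed. It stood at 174 and 196 RPKM in Tcf7+/+ PP, 196 and 213 RPKM in labelled knockout PP, 36.6 and 42.5 RPKM in Tcf7+/+ LP, and 29.2 and 61.3 RPKM in labelled knockout LP. The PP libraries were all higher than the LP libraries, whatever the genotype label. The average LP minus PP difference was -2.22 ± 0.36 (limma adjusted p = 0.00672), and it passed in 15 of 16 alternatives, with adjusted p = 0.065 when the spread was not allowed to follow the mean. Within Tcf7+/+ and within labelled knockout libraries it was -2.20 ± 0.47 and -2.24 ± 0.47, neither of which passed (limma adjusted p = 0.0711 and 0.0695).

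Eno1 has a near-copy, Eno1b, on another chromosome, and 48.4% of the 50-base words of Eno1 transcripts also occur in Eno1b. Reads from the pair cannot be fully told apart. Eno1 made up 53.0% to 55.6% of the RPKM of the 4 enolase genes Eno1, Eno1b, Eno2 and Eno3 in PP and 45.7% to 55.4% in LP. Eno1b stood at 140 and 174 RPKM in Tcf7+/+ PP, 160 and 170 RPKM in labelled knockout PP, 32.5 and 49.3 RPKM in Tcf7+/+ LP, and 14.03 and 49.3 RPKM in labelled knockout LP. It fell by 2.26 ± 0.46 from PP to LP on the log2 scale (limma adjusted p = 0.0221), a call that held in 11 of 16 alternatives and was lost without either labelled knockout PP library (0.0759 and 0.0778) or Tcf7+/+ LP replicate 1 (0.0698). Summed, the pair stood at 314 to 383 RPKM in PP and 43.2 to 111 RPKM in LP, so the summed ranges of the 2 tissues did not overlap.

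Of the 10 members, 2 passed for the average tissue effect, 1 higher and 1 lower in LP, against a background of 4.33% of all genes tested in either direction. The members' median log2 fold change was -0.39, and that of all genes was -0.10. The libraries of the 2 tissues did not overlap for 5 members (Hk2 higher in LP, and Hk1, Gpi1, Eno1 and Pkm lower), against 13.6% of all genes. Within Tcf7+/+ libraries 0 of 10 members passed, against 2.13% of all genes, while 4 had an unadjusted p under 0.05, against 17% of all genes, and 8 had groups of libraries that did not overlap, against 47.4% of all genes. Within labelled knockout libraries 1 passed, against 2%, and 5 did not overlap, against 45.6%. These comparisons share libraries, so they are not independent of each other.

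**Figure D2:**
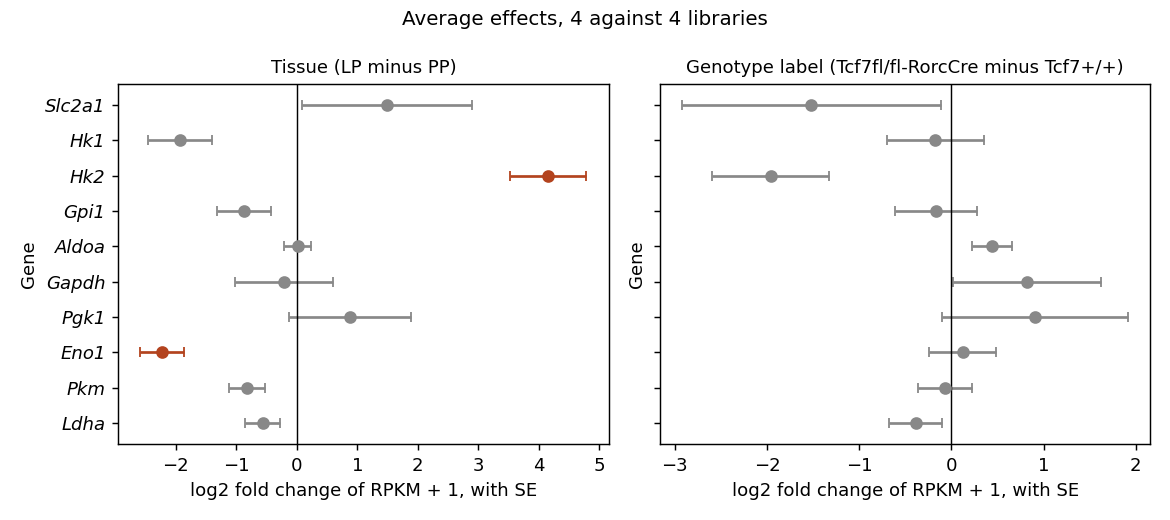
Average effects on the 10 genes, each fitted over 4 against 4 libraries: LP minus PP on the left and labelled Tcf7fl/fl-RorcCre minus Tcf7+/+ on the right. Points are log2 fold changes of RPKM + 1 and bars their standard errors; red marks the genes that passed, Hk2 at 4.15 and Eno1 at -2.22, both for tissue.

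The most abundant members were 3 enzymes of the middle and end of the pathway. Aldoa (Entrez Gene 11674, chromosome 7, 126795234 to 126800994), the aldolase of muscle and most other tissues, stood at 311 and 243 RPKM in Tcf7+/+ PP, 362 and 358 RPKM in labelled knockout PP, 242 and 297 RPKM in Tcf7+/+ LP, and 414 and 343 RPKM in labelled knockout LP. It had the narrowest relative range of the 10, and its tissue difference was 0.01 ± 0.22 (limma adjusted p = 0.983). Its labelled knockout libraries were above the Tcf7+/+ libraries in both tissues, by 0.39 ± 0.27 in PP and 0.49 ± 0.27 in LP, neither of which passed (limma adjusted p = 0.693 and 1). The PP value turned to -0.19 after median-of-ratios rescaling between libraries.

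Ldha (Entrez Gene 16828, chromosome 7, 46842274 to 46855627), which encodes the A subunit of lactate dehydrogenase, stood at 359 and 475 RPKM in Tcf7+/+ PP, 206 and 308 RPKM in labelled knockout PP, 217 and 228 RPKM in Tcf7+/+ LP, and 163 and 278 RPKM in labelled knockout LP. The 2 Tcf7+/+ PP libraries held the highest values. The average tissue difference of -0.57 ± 0.29 did not pass (limma adjusted p = 0.321), nor did the genotype difference in PP of -0.71 ± 0.37 (limma adjusted p = 0.594). Ldha made up 82.6% to 99.9% of the RPKM of the LDH genes Ldha, Ldhb and Ldhc in every library.

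Pkm (Entrez Gene 18746, chromosome 9, 59656576 to 59679372) encodes the pyruvate kinase of most tissues outside liver and red cells. It stood at 399 and 223 RPKM in Tcf7+/+ PP, 277 and 363 RPKM in labelled knockout PP, 192 and 183 RPKM in Tcf7+/+ LP, and 125 and 206 RPKM in labelled knockout LP. All LP libraries were below all PP libraries, and the average LP minus PP difference of -0.82 ± 0.29 did not pass (limma adjusted p = 0.158). The splice forms PKM1 and PKM2 are not separated by a gene-level value. Gpi1 (Entrez Gene 14751, chromosome 7, 34201327 to 34230336), the glucose-6-phosphate isomerase, was likewise lower in every LP library, at 25.7 to 51.4 RPKM against 58.2 to 92.1 RPKM in PP. Its difference was -0.88 ± 0.44 (limma adjusted p = 0.315).

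**Figure D3:**
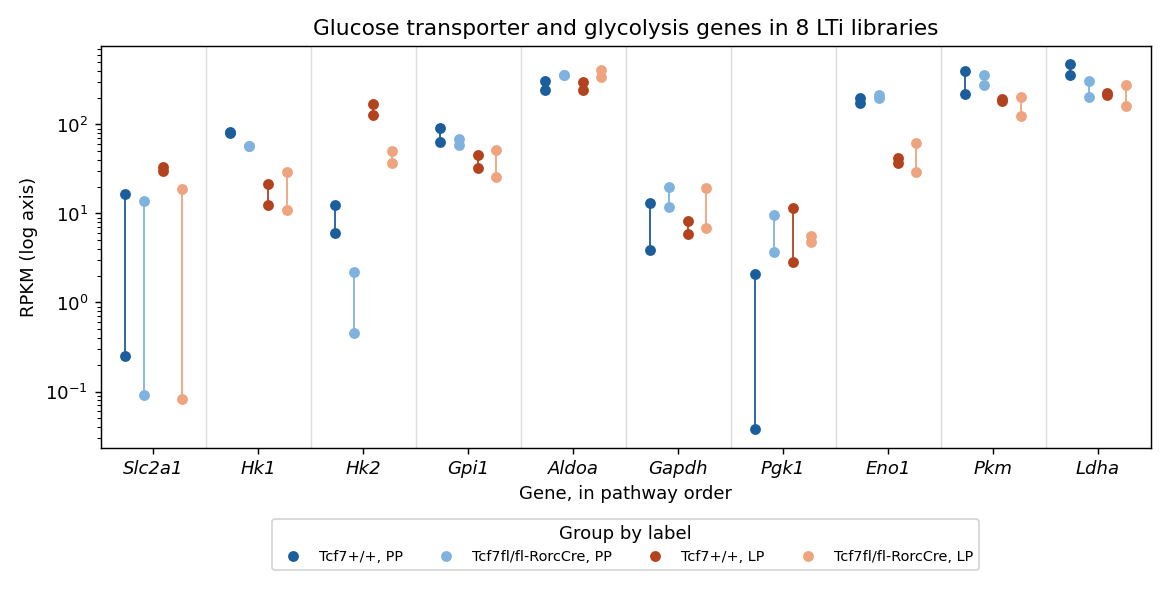
RPKM of the 10 members in each library on a log axis, with genes in pathway order. Each point is 1 library and each line joins the 2 libraries of a group; Hk1 and Eno1 sit lower and Hk2 higher in LP, and the Slc2a1 replicates are far apart in 3 of the 4 groups.

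The order of the levels differed between the tissues. In PP the mean levels were 337 ± 112 RPKM for Ldha, 319 ± 55.4 for Aldoa, 315 ± 80.1 for Pkm, 195 ± 15.9 for Eno1, 70.4 ± 15.1 for Gpi1, 68.9 ± 13.7 for Hk1, 12.1 ± 6.57 for Gapdh, 7.77 ± 8.85 for Slc2a1, 5.26 ± 5.30 for Hk2 and 3.85 ± 4.11 for Pgk1 (SD over n = 4). Neighbours in that order differed by less than the larger of their SDs, apart from Pkm and Eno1, Eno1 and Gpi1, and Hk1 and Gapdh. In LP they were 324 ± 73.0 RPKM for Aldoa, 221 ± 47.3 for Ldha, 176 ± 35.5 for Pkm, 96.5 ± 63.7 for Hk2, 42.4 ± 13.7 for Eno1, 38.6 ± 11.9 for Gpi1, 20.5 ± 14.97 for Slc2a1, 18.4 ± 8.42 for Hk1, 10.04 ± 6.22 for Gapdh and 6.16 ± 3.67 for Pgk1 (SD over n = 4). There the exceptions were Aldoa and Ldha, Pkm and Hk2, and Gpi1 and Slc2a1. The 4 libraries of a tissue include both genotype labels. The places of Gapdh, Pgk1 and Eno1 in both orders are uncertain, because they share much transcript sequence with other genes, as described below. The summed RPKM of the 10 was 1188 to 1408 in PP and 829 to 1050 in LP. Those ranges did not overlap, but without Gapdh, Pgk1 and Eno1 they did, at 963 to 1218 and 776 to 977 RPKM.

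Gapdh and Pgk1, which encode the consecutive enzymes of the first ATP-yielding stage, had low values for genes of this pathway. Gapdh (Entrez Gene 14433, chromosome 6, 125161852 to 125166467) stood at 13.1 and 3.85 RPKM in Tcf7+/+ PP, 19.9 and 11.7 RPKM in labelled knockout PP, 5.87 and 8.24 RPKM in Tcf7+/+ LP, and 19.3 and 6.79 RPKM in labelled knockout LP. Pgk1 (Entrez Gene 18655, chromosome X, 106187100 to 106203699) stood at 2.06 and 0.0376 RPKM in Tcf7+/+ PP, 9.59 and 3.70 RPKM in labelled knockout PP, 2.87 and 11.4 RPKM in Tcf7+/+ LP, and 4.73 and 5.65 RPKM in labelled knockout LP. Their tissue differences were -0.22 ± 0.81 and 0.88 ± 1.01, and neither passed (limma adjusted p = 0.925 and 0.704).

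Both share sequence with pseudogenes annotated in the mouse genome, Gapdh with many more of them than Pgk1. Of the 50-base words of Gapdh protein-coding transcripts in GENCODE M21, 58.4% also occurred in transcripts of 222 other genes, 213 of them annotated pseudogenes, and for Pgk1 the share was 68.0%, over 5 pseudogenes. Pgam1, the mutase that follows Pgk1 and no member of the set, shared 41.5% and read 2.20 to 22.3 RPKM. The share was 49.5% for Eno1, which read 119 RPKM on average over the 8 libraries, and 0 for Slc2a1, which read 14.2 RPKM. It was 6.57% for Aldoa, 10.4% for Ldha, 18.4% for Pkm and 18.95% for Gpi1, and 0 for Hk1 and Hk2. With 100-base words the shares were 53.1% for Gapdh, 67.0% for Pgk1 and 39.5% for Eno1. The sources used here do not say how reads matching several places were counted, so the Gapdh, Pgk1 and Eno1 levels are uncertain and should not be read against the other members. Whether lost reads set the low Gapdh and Pgk1 values was not tested.

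**Figure D4:**
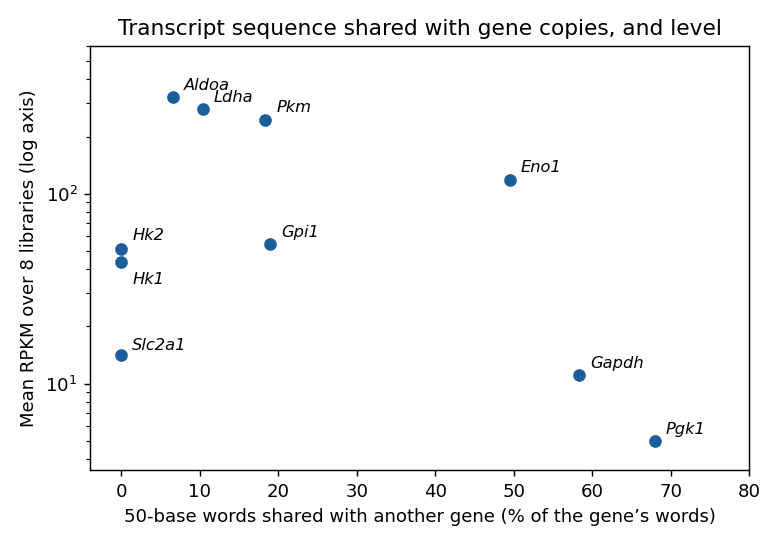
Share of each member's 50-base transcript words that occur in transcripts of another gene (horizontal axis, percent) against its mean RPKM over the 8 libraries (vertical axis, log scale). Pgk1 and Gapdh, with 68.0% and 58.4% shared, had the lowest means, 5.004 and 11.1 RPKM; Eno1, with 49.5% shared, had a mean of 119 RPKM, and Slc2a1, with 0 shared, 14.2 RPKM.

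Slc2a1 (Entrez Gene 20525, chromosome 4, 119108745 to 119137330), the gene of the glucose transporter GLUT1, was read either clearly or hardly at all. It stood at 0.249 and 16.8 RPKM in Tcf7+/+ PP, 0.0905 and 13.97 RPKM in labelled knockout PP, 29.9 and 33.3 RPKM in Tcf7+/+ LP, and 0.0832 and 18.8 RPKM in labelled knockout LP. In 3 of the 4 groups 1 replicate was under 1 RPKM and the other above 10 RPKM, and the tissue difference of 1.49 ± 1.40 did not pass (limma adjusted p = 0.621). Such splits were common in these libraries: of 5790 genes averaging 10 RPKM or more, 39.7% had in at least 1 group a replicate under 1 RPKM beside one at 10 RPKM or more. Replicates correlated (Pearson r of log2(RPKM + 1) over the genes kept) at 0.577 in Tcf7+/+ PP and 0.655 in labelled knockout PP. In LP the values were 0.745 in Tcf7+/+ and 0.679 in labelled knockout libraries. Libraries of different genotype label correlated at 0.583 to 0.596 in PP and 0.690 to 0.721 in LP. Replicates of Tcf7+/+ PP and of labelled knockout LP were thus no more alike than libraries of different label.

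Of the other glucose carriers of the family, Slc2a6 was the one that passed. SLC2A6 (GLUT6) is a hexose transporter found in leukocytes. Slc2a6 stood at 14.2 and 24.0 RPKM in Tcf7+/+ PP, 68.5 and 81.7 RPKM in labelled knockout PP, 101 and 115 RPKM in Tcf7+/+ LP, and 255 and 320 RPKM in labelled knockout LP. The 4 groups did not overlap, and LP was higher than PP by 2.20 ± 0.37 on average (limma adjusted p = 0.00755), in 15 of 16 alternatives. The labelled knockout minus Tcf7+/+ difference was 1.68 ± 0.37 and did not pass (limma adjusted p = 0.445).

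Between genotype labels no member passed. In PP the epithelial, T cell, B and plasma cell and erythroid marker sums also differed between the labels. The erythroid sums were 0.843 and 4.73 RPKM in Tcf7+/+ PP and 8.11 and 10.3 RPKM in labelled knockout PP, and the others are given at the end. In LP the T cell and the myeloid marker sums did so. The LTi marker sum also did, at 9117.4 and 8943.5 RPKM in Tcf7+/+ LP and 7692.8 and 7816 RPKM in labelled knockout LP. Of its 15 genes, 5 were higher and 10 lower in labelled knockout LP. The part of all these in the values was not tested. In PP 0 of 10 members passed, against 0.36% of all genes, with 1 at an unadjusted p under 0.05 (Hk2), against 11.4% of all genes. In LP 0 passed, against 0.0285%, with 0 at an unadjusted p under 0.05, against 5.27%. The groups did not overlap for 5 members in PP (Hk1, Hk2 and Ldha lower and Aldoa and Pgk1 higher in labelled knockout libraries), against 37.5% of all genes, and for 3 in LP (Slc2a1 and Hk2 lower and Aldoa higher), against 35.6%. Those shares are near the background.

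Hk2 was the member with the lowest p for genotype. Its labelled knockout libraries lay below the Tcf7+/+ libraries in both tissues, by -2.17 ± 0.80 in PP and -1.75 ± 0.80 in LP on the log2 scale, and neither passed (limma adjusted p = 0.348 and 1). The average over tissues was -1.96 ± 0.63 (limma adjusted p = 0.709), where 0 members passed against 0.00949% of all genes. The genotype difference of Hk2 did not differ detectably between tissues, with an interaction of 0.42 ± 1.13 (limma adjusted p = 0.969). For the interaction 0 of 10 members passed, against 0.0285% of all genes, and 0 had an unadjusted p under 0.05, against 8.75%. Pgk1 in PP had 1.98 ± 1.20 and Hk1 in PP -0.49 ± 0.67 (limma adjusted p = 0.693 and 0.831).

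The remaining steps of glycolysis were read from a list of 23 other genes, of which 13 were kept. For the average tissue effect 1 was higher and 2 were lower in LP, against 4.33% of all genes passing in either direction. These were Slc2a6, Eno1b and Tpi1, the triosephosphate isomerase. The calls of Eno1b and Eno1 may not be separate, given their shared words. Tpi1 stood at 148 to 227 RPKM in PP and 58.0 to 130 RPKM in LP, a difference of -1.35 ± 0.33 (limma adjusted p = 0.0468). That call held in 3 of 16 alternatives; the adjusted p was 0.0648 to 0.118 without any 1 library other than labelled knockout LP replicate 1. For the phosphofructokinase step, Pfkl stood at 13.4 to 126 RPKM and Pfkp at 3.59 to 69.3 RPKM over the 8 libraries, with tissue differences of -0.90 ± 0.59 and 0.28 ± 0.80 that did not pass (limma adjusted p = 0.436 and 0.905). None of these 13 genes passed for genotype in PP or in LP, where 2 and 1 had an unadjusted p under 0.05, against 11.4% and 5.27% of all genes.

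**Figure D5:**
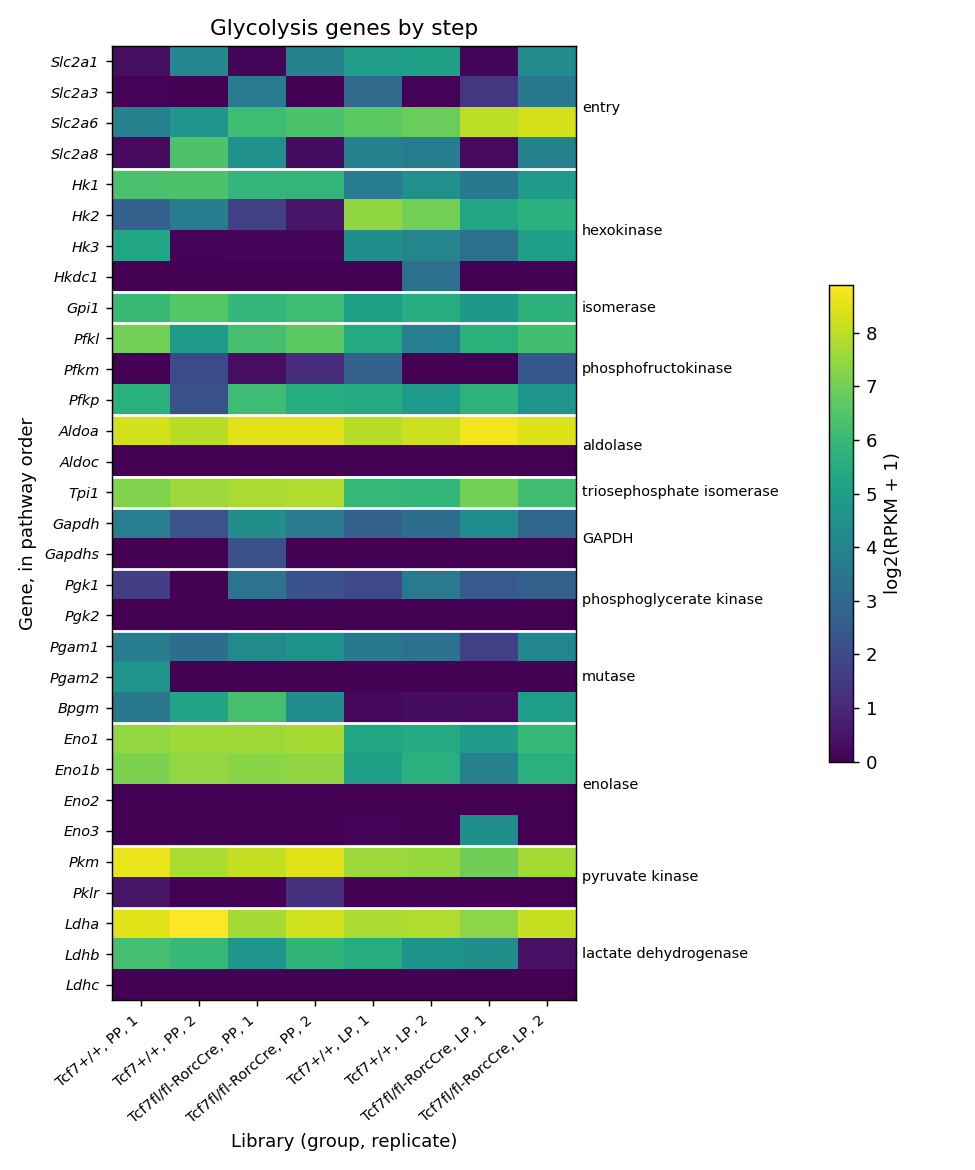
Levels of glycolysis genes and their isoforms, as log2(RPKM + 1), with genes in pathway order (rows, steps named at the right) and the 8 libraries in columns. The lower Hk1, Eno1, Eno1b and Tpi1 and the higher Hk2 in LP are seen as changes of colour between the PP and LP columns. The Hk1 tissue difference did not pass (limma adjusted p = 0.0698), and the Tpi1 call held in 3 of 16 alternatives.

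Outside glycolysis itself, lists of related genes were read in the same way. Of 12 kept regulators and lactate carriers 0 passed in any comparison, with Pdp1 (2.95 ± 0.96) and Pdp2 (2.65 ± 1.03), phosphatases that activate pyruvate dehydrogenase, having the lowest p for the average tissue effect (limma adjusted p = 0.126 and 0.189). Of 25 genes of pyruvate entry and the TCA cycle, 1 passed as lower in LP, the succinyl-CoA ligase gene Suclg1 (-1.83 ± 0.43, limma adjusted p = 0.0412, a call that held in 4 of 16 alternatives and was lost without any 1 library other than replicate 1 of labelled knockout PP and LP, at 0.0702 to 0.119), against 4.33% of all genes, and 6 of the 25 had a positive difference, against 47.0% of all genes. Of 7 pentose phosphate genes 0 passed. Pgd, the 6-phosphogluconate dehydrogenase gene, came nearest for tissue (-1.78 ± 0.46, limma adjusted p = 0.0604). Of 16 kept HIF-1 pathway genes 0 passed for the average tissue effect, and 12 had a positive and 4 a negative difference, against 47.0% positive of all genes. Egln2 (-2.39 ± 0.62) and P4ha1 (3.05 ± 0.93) had the lowest p there (limma adjusted p = 0.0607 and 0.105). Within Tcf7+/+ libraries 1 of the 16 passed, against 2.13% of all genes. It was Ndrg1, a gene induced by low oxygen, at 0.0267 and 0.0312 RPKM in PP and 11.8 and 20.4 RPKM in LP (4.01 ± 0.70, limma adjusted p = 0.0423). This call held in 6 of 15 alternatives and was lost without any 1 PP library (0.0834 to 0.116) or labelled knockout LP library (0.0726 and 0.0708). Without either Tcf7+/+ LP library the gene was removed by the filter on low values, because it was under 1 RPKM in the other 6 libraries. The call therefore rests on the same high values that kept the gene, and it is not independent of the filter. Ndrg1 stood at 0.0329 and 0.0265 RPKM in the labelled knockout LP libraries, and their difference from Tcf7+/+ LP of -4.01 ± 0.70 did not pass (limma adjusted p = 0.3). Hif1a stood at 0.232 to 43.4 RPKM in PP and 17.4 to 61.1 RPKM in LP. The 2 kept gluconeogenesis genes, Pck2 and G6pc3, did not pass in any comparison.

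Several measures moved with the groups, and their part in these results was not tested. In bulk samples fewer cells of a type and less RNA per cell cannot be told apart. The share of all RPKM from mitochondrially encoded genes was 13.4% and 13.6% in labelled knockout PP libraries, against 3.06% to 5.06% elsewhere. That from immunoglobulin genes was 2.82% to 6.38% across PP libraries and 10.3% to 17.1% across LP libraries. Of 16 epithelial markers 15 reached 1 RPKM in at least 2 libraries, summing to 150 and 379 RPKM in Tcf7+/+ PP, 772 and 838 RPKM in labelled knockout PP and 214 to 513 RPKM in LP. Their median log2 fold change for genotype in PP was 2.22, against 0.16 for all genes. Of 8 T cell markers all 8 reached 1 RPKM in at least 2 libraries. They summed to 205 and 307 RPKM in Tcf7+/+ PP, 161 and 191 RPKM in labelled knockout PP, 134 and 96.7 RPKM in Tcf7+/+ LP and 61.6 and 84.8 RPKM in labelled knockout LP. Although the PP sum was lower in the labelled knockout libraries, 6 of the 8 genes had a positive genotype difference there. Of 9 B and plasma cell markers 8 reached 1 RPKM in at least 2 libraries, with Pax5 under 1 RPKM throughout. They summed to 11887 and 12055 RPKM in Tcf7+/+ PP, 4926 and 5416 RPKM in labelled knockout PP and 15193 to 24788 RPKM in LP. Igkc alone read 11308 and 11411, 4368 and 4748, and 14326 to 23305 RPKM there, so the sums mainly follow that gene. Of the 8 genes kept, 3 were higher and 5 lower in labelled knockout PP, and 3 higher and 5 lower in LP on average. Cd79b read 59.4 and 49.3 RPKM in Tcf7+/+ PP and 266 and 197 RPKM in labelled knockout PP. Of 11 myeloid markers 2 reached 1 RPKM in at least 2 libraries, with the complement genes C1qa, C1qb and C1qc, Itgam, S100a8 and S100a9 under 1 RPKM throughout. The list summed to 0.754 to 65.3 RPKM in PP, 11.3 and 0.299 RPKM in Tcf7+/+ LP and 99.9 and 55.4 RPKM in labelled knockout LP. Of 6 stromal and endothelial markers only Pecam1 was above 1 RPKM in any library. Of the 4 erythroid markers found 2 reached 1 RPKM in at least 2 libraries, and the list summed to at most 12.9 RPKM.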

How the data were processed

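Per the labels' protocols, RNA was purified on miRNeasy Micro columns and made into Smart-seq2 libraries. Per the submitters' processing notes, featureCounts of Subread and the mm10 build were used; those notes and labels do not state the aligner, versions, strand setting or treatment of reads that match several places. The authors deposited 1 table of log2(RPKM + 1) for 27179 genes in 8 libraries, with 0.0001 in place of 0. The log base was checked from the values: after undoing log2, RPKM times exon length summed to 1.38 to 1.55 times the total to which RPKM is scaled, against 16.3 to 21.5 times for a natural log. Read depth is not in the table. An estimate from 274 genes with 1 transcript gave 37.3 to 43.6 M reads per library, and no counting interval is given.

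The table writes most symbols in capitals, so genes were matched by Entrez ID to RefSeq (GRCm38.p6) symbols, which 25275 IDs had. The log was undone and log2(RPKM + 1) refitted with limma 3.58.1 in R 4.3.3 (with the spread's prior following the mean) on the 10541 genes at 1 RPKM or more in at least 2 libraries. Comparisons within 1 tissue or genotype and the interaction used 4 group means (4 residual degrees of freedom), and average effects an additive model (5). P-values were Benjamini-Hochberg adjusted over all genes kept, and the code was tested on simulated data. Fold changes on this scale understate low genes. Shared transcript words were counted in GENCODE M21. RefSeq promoter windows were found for all 10 genes.

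The members, gene lists and tests were chosen with earlier results of these data known. All members are named; of each other list, genes that passed (up to 4) or else up to 2 with the lowest p, and all other glycolysis genes could be named. Hif1a and the marker genes named were added from these lists after their values were seen. Alternatives were other pseudocounts, filters, scalings, no trend, the replicate number as a block, only the groups compared, and each library left out in turn. A few genes of the lists are not reported here.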

Additional observations from a re-analysis of the deposited data

How the results depend on the processing

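Counts of genes passing changed with the settings, and the cause was not tested. In labelled knockout libraries the only member call for tissue, of Hk2, was also lost under settings that left the count within 1.5 times (149 genes with a pseudocount of 0.1, 217 with 5 and 157 with a filter on the mean). The genotype comparison in PP gave 38 genes, 76 with no filter, 23 with median-of-ratios rescaling, 138 with no trend of the spread, 0 with only the 2 groups compared and 1 to 35 with 1 library left out. The genotype comparison in LP gave 3, 56 with no filter, 0 with a pseudocount of 0.1, with no trend or with only the 2 groups, and 0 to 4 with 1 library left out. The tissue comparison gave 224 genes in Tcf7+/+ libraries (0 with only the 2 groups, 0 to 180 with 1 library left out) and 211 in labelled knockout libraries (127 with no trend, 0 with only the 2 groups, 25 to 170 with 1 left out). The interaction gave 3, 10 with a pseudocount of 5, 36 with no filter, 0 with no trend and 0 to 6 with 1 left out. The average genotype effect gave 1, 2 with a pseudocount of 5 and 1 to 4 with 1 left out. The average tissue effect gave 456, 282 with no filter, 271 with no trend and 243 to 448 with 1 left out. These counts of 0 came from limma, and no count test was possible on RPKM.

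Same-numbered libraries did not deviate together (correlations of replicate differences between -0.0214 and 0.0103 over 10541 genes). The labels do not say whether they share an animal or a batch, and these correlations cannot exclude it. With the replicate block the counts were 16 and 0 for genotype in PP and LP, 99 and 74 for tissue in Tcf7+/+ and labelled knockout libraries, and 1 for the interaction.

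With median-of-ratios rescaling, the all-gene median went from 0.16 to -0.07 for genotype in PP, from 0.09 to -0.04 and from -0.29 to 0.01 for tissue in Tcf7+/+ and labelled knockout libraries, and from -0.39 to 0.18 for the interaction. The higher and lower calls went from 28 and 10 to 11 and 12, from 141 and 83 to 125 and 128, and from 98 and 113 to 131 and 66 for the first 3. Signs turned for values near 0: Aldoa for genotype in PP (-0.19 with median-of-ratios rescaling), the Hk2 interaction (-0.52 with a pseudocount of 5, -0.15 to 0.99 with 1 library left out), and with 1 library left out the average tissue effects of Aldoa (-0.050 to 0.096) and Gapdh (-0.56 to 0.093).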
